A study of Arabidopsis thaliana with 28 samples.

Results

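Wild-type Arabidopsis thaliana seedlings of accession Col-0 given 50 nM abscisic acid (ABA) were compared with Col-0 seedlings given a mock solution. The comparison used 5 of the 28 RNA sequencing libraries of the series, chosen by their labels: replicates 1, 2 and 3 of Col-0 50 nM ABA, and replicates 1 and 2 of Col-0 mock. Mock replicate 3 was not analysed here. Per the labels' protocols, seedlings spent 7 days on MS plates and then 3 h in liquid MS medium with ABA or mock, and another label gives an age of 10 DAG. RNA came from whole seedlings, so each library mixes root and shoot cell types, and every sample carries the line label T3. Col-0 given 10 nM ABA (replicates 2 and 3) and the ABA-deficient mutant aba2-1, a mutant of the biosynthesis gene ABA2, given 50 nM ABA or mock (3 libraries each) were used to show where the Col-0 response differed by dose or genotype. The statistical fit covered all 28 libraries. Its spread was thus also estimated from aba2-1 given 10 nM ABA and from lines labelled PYR1 CA, PYL4 CA, PYL5 CA and PYL6 CA. The labels do not say whether replicates were grown or treated separately. Each p-value thus describes a spread between replicate libraries, estimated over all 28, which may be technical.

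ABA is the plant hormone of water deficit and seed maturation. It binds receptors of the PYR/PYL family, and the occupied receptor blocks clade A PP2C phosphatases, which releases SnRK2 kinases to phosphorylate bZIP transcription factors of the ABF group. These factors bind the ABA-responsive element, whose core is ACGTG, in promoters of genes for dehydrins, other late embryogenesis abundant (LEA) proteins and further protective proteins.

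The 5 libraries held between 15.16 and 20.13 M reads. The deposited values are reads divided by 1 size factor per library and are called normalised reads here. In each of the 4 replicate pairs of the 2 groups the counts differed beyond sampling noise, with a chi-square per degree of freedom between 5.35 and 24.6. Ribosomal RNA took 3.47%, 3.57% and 1.58% of the reads in 50 nM ABA replicates 1, 2 and 3 and 1.02% and 1.09% in the mock libraries. Chloroplast genes took 3.12% to 3.95% at 50 nM ABA and 2.87% to 2.94% in mock. Markers of root, mesophyll, epidermis, guard cells and vasculature were all detected. MRD1 and HEI10, overlapping loci on chromosome 1 whose reads are therefore uncertain, set libraries apart within a group. MRD1 had 154, 380 and 9.15 normalised reads in the 50 nM ABA libraries and 11.6 and 21.7 in mock, while aba2-1 libraries at 50 nM ABA and mock had 570 to 859. HEI10 had 112, 133 and 36.6 at 50 nM ABA and 30 and 47.1 in mock, with 303 to 536 in aba2-1. Replicates 1 and 2 of the 50 nM ABA group thus carried more of both transcripts than replicate 3 and mock. The 10 nM ABA libraries split likewise, with MRD1 at 177 and 6.58 and HEI10 at 113 and 37.3 in replicates 2 and 3. The part of this in the results was not tested.

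In all, 213 of 21023 loci tested (1.01%) passed an adjusted p under 0.05 in limma, with 166 higher (0.79%) and 47 lower (0.224%) at 50 nM ABA. A locus said to have risen or fallen passed this test. The shares of 0.79% and 0.224% are the background for each count of list members below. On the fitted log2(value + 1) scale, changes of at least 2-fold were found for 115 of the loci that rose and 12 of those that fell, and at least 4-fold changes for 43 and 1. In each of the 213 loci the 3 ABA libraries lay apart from the 2 mock libraries, as they also did in 17.8% of all loci on the higher side and 16.8% on the lower side. The number of calls fell to 60 and 67 without ABA replicates 1 and 2, and was 192 without replicate 3. A fit without a mock library leaves 1 in that group, which by itself widens the standard error. A call lost there, here and below, can therefore come with little change in the difference. GSTU24 had log2 differences of 0.67 and 0.72 without mock replicates 1 and 2, against 0.70 with both. LOX3 moved more, to 2.48 and 1.56 from 2.02. The count also followed the estimate of the spread, with 929 loci called in a fit of the 2 groups alone, and 370 and 323 in the fit of all 28 libraries without aba2-1 50 nM ABA replicates 2 and 3. Calls that held in all 5 fits that left out 1 library numbered 14. The 11 of these that rose were RAB18, MYB102, RD29B, EM6, LBD41, PDC1, PRR9, GSTU4, SRO4, AT5G16980 and AT5G65207, and the 3 that fell were AT2G43140, LACS1 and TBL45. SRO4, AT5G16980, AT5G65207, LACS1 and TBL45 are named after their values were seen. Of the genes below whose call was lost in 4 such fits, LOX3, MYB74 and PRX2 kept it only without ABA replicate 1, ABF1, PRR5 and SAUR5 only without ABA replicate 2, and the others only without ABA replicate 3. Of those lost in 3, ELI3-2, AT5G10040 and AOC2 were lost without ABA replicate 2 or either mock library, GI and DREB2C without ABA replicate 1 or either mock library, LOX2 and ADH1 without ABA replicate 1 or 2 or mock replicate 2, and LEA7 without ABA replicate 1 or 2 or mock replicate 1.

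The dehydrin gene RAB18 gave the smallest p of the comparison. Dehydrins are disordered hydrophilic proteins that accumulate in drying or cold tissue. RAB18 (AT5G66400, chromosome 5, 26518277 to 26519447 in TAIR10.1) had 531, 299 and 399 normalised reads in the 50 nM ABA libraries and 16.4 and 32.1 in the mock libraries. Its lowest ABA library thus lay far above its highest mock library, a log2 difference of 4.06 (SE 0.28, adjusted p = 9.2e-09). It was the only 1 of 6 measured dehydrins to pass, and the list's median log2 difference was 0.26, against -0.01 over all loci. COR47, an abundant cold-regulated dehydrin, had 15351, 11868 and 16597 normalised reads at 50 nM ABA and 11170 and 12220 in mock, so its groups overlapped (adjusted p = 0.93).

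Of 21 measured genes for other LEA proteins and for cold- or ABA-inducible protective proteins, 8 rose and none fell, with a median log2 difference of 1.67. Over all loci 0.79% rose and 0.224% fell. RD29B, a stress-inducible gene used as an ABA reporter, had 88.3, 105 and 105 normalised reads at 50 nM ABA and 10.6 and 8.49 in mock (log2 3.26, SE 0.47, adjusted p = 0.00072). LEA4-5, a group 4 LEA protein gene, had 102, 96.6 and 114 at 50 nM ABA and 19.3 and 15.1 in mock (log2 2.54, SE 0.40, adjusted p = 0.0016; adjusted p = 0.079 without mock replicate 2). Both genes were about level among the ABA libraries and far from mock. EM6, a LEA gene best known from seeds, had 25.8, 36.9 and 24 normalised reads at 50 nM ABA and 0.966 and 1.89 in mock. That was 89 reads against 3, a ratio of 20.6 with an exact 95% counting interval of 6.82 to 102 (adjusted p = 0.00028). LEA7 had 64.5, 63.2 and 58.3 at 50 nM ABA and 0.966 and 9.43 in mock (log2 3.80, adjusted p = 0.018). The lipid transfer gene LTP4 had 20.8, 26.3 and 10.3 at 50 nM ABA and 0.966 and 0 in mock, or 60 reads against 1 (ratio 41.6, interval 7.19 to 1671, adjusted p = 0.017). Counting intervals cover counting error only.

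The remaining called members were COR15A, RD20 and KIN2. COR15A, a cold-regulated chloroplast protein gene, had 262, 175 and 201 normalised reads at 50 nM ABA and 25.1 and 17 in mock (log2 3.28, SE 0.77, adjusted p = 0.041). RD20, a caleosin gene of lipid bodies, had 153, 169 and 90.4 at 50 nM ABA and 47.3 and 33 in mock (log2 1.72, adjusted p = 0.013). KIN2, whose reads are uncertain because KIN1 is a close copy, had 4033, 3486 and 3198 at 50 nM ABA and 1552 and 1533 in mock (log2 1.2, adjusted p = 0.049). None of these calls was firm against the loss of a library: COR15A and KIN2 missed the threshold in all 5 such fits, with an adjusted p up to 0.45 and an adjusted p up to 0.42, LEA7 in 3 (up to 0.42), and RD20 and LTP4 in 4 each (up to 0.32 and 0.34). RD29A, the neighbour of RD29B, had 5452, 4826 and 5117 normalised reads at 50 nM ABA and 2485 and 2563 in mock. Its groups lay about 2.03-fold apart, yet it did not pass (log2 1.02, SE 0.27, adjusted p = 0.064). ECP63, a seed LEA gene, had 11.9, 4.39 and 6.86 at 50 nM ABA and was listed at 0 in both mock libraries, and did not pass (adjusted p = 0.08). Without ABA replicate 1 or 2, 3 of the 21 members passed, and without mock replicates 1 and 2 the list median was 1.82 and 1.45. Other fits called more members: 14 rose in the 2 groups alone, in the 3 Col-0 groups and with the replicate number as a block. Calls over all loci rose as well in these fits, to 929, 1071 and 1360. DESeq2 called 9 members higher and edgeR 6. Markers of seeds stood beside these genes: 4 of 9 in the table had values high enough to test, none passed, and their median log2 difference was 1.08. Those 4 summed to 8.01 to 29 normalised reads at 50 nM ABA and 4.71 to 7.73 in mock, with CRU3 listed at 0 in all 5 libraries, and their part in the values of seed LEA genes was not tested.

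**Figure D1:**
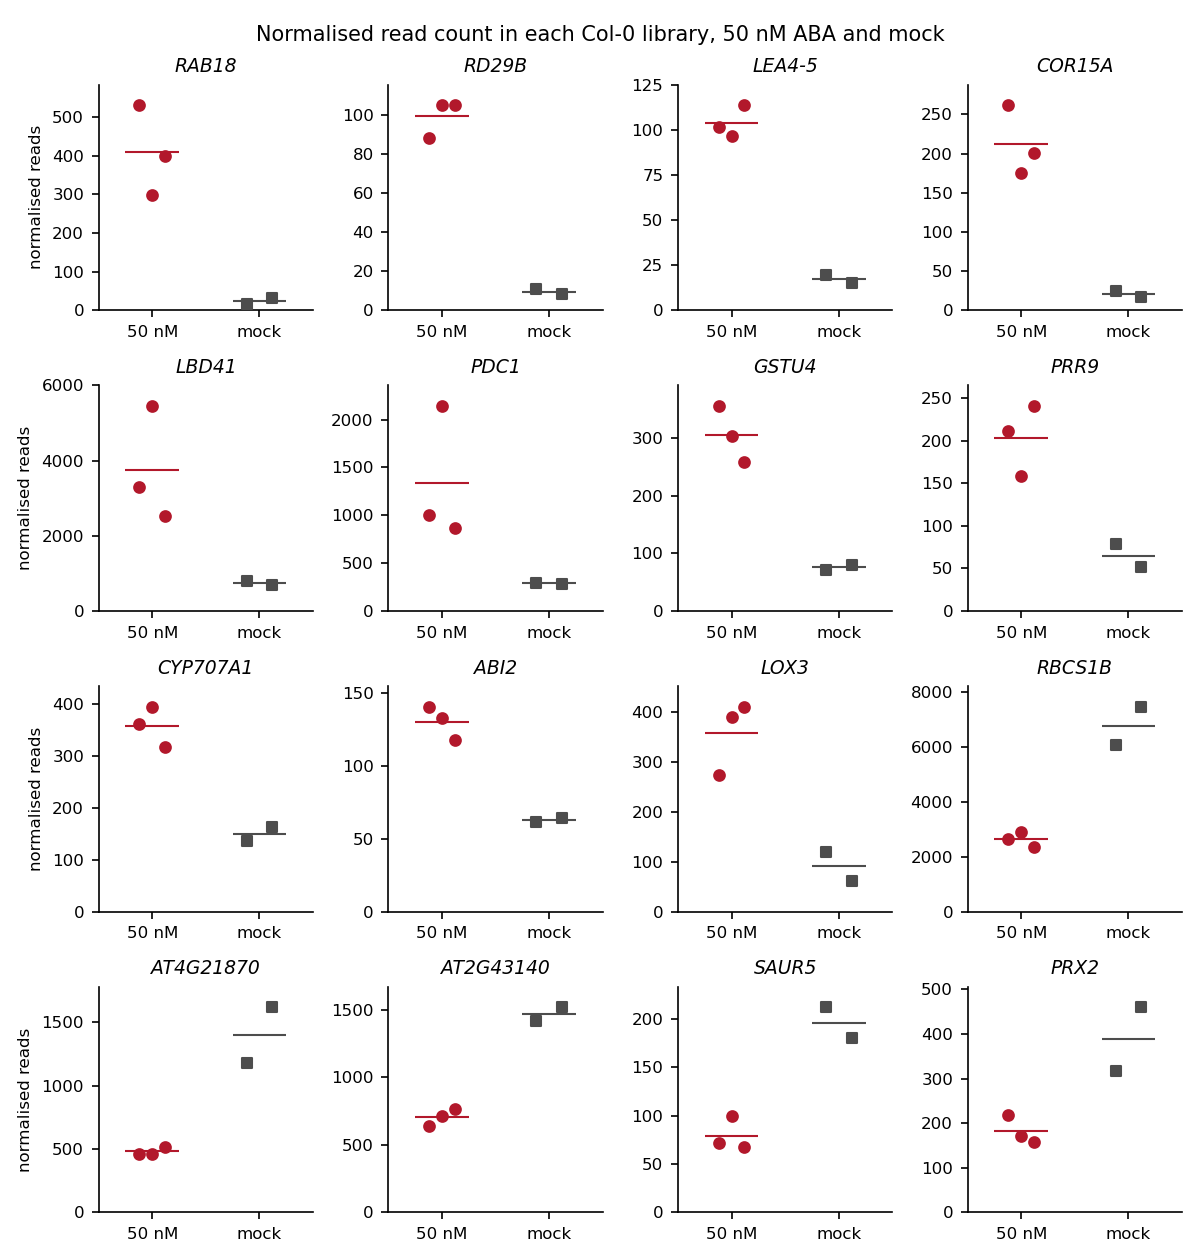
Normalised reads (vertical axes, linear from 0) of 16 genes in each of the 3 Col-0 50 nM ABA libraries (red circles) and the 2 Col-0 mock libraries (grey squares), with a line at each group mean. RAB18 has 299 to 531 normalised reads at 50 nM ABA and 16.4 to 32.1 in mock, and no gene shown has overlapping groups.

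Promoter sequence is shown for 6 of the genes that rose, to place the ACGTG core, or its absence in the window, beside the values. The window of RAB18 held 3 matches but overlaps another gene and is not shown. Each line holds the 250 bases before the annotated gene start in RefSeq TAIR10.1, 5′ to 3′ on the gene's own strand, with every ACGTG in capitals on either strand, so that CACGT is the core on the other strand and CACGTG is both. RD29B lies on chr5:21236771-21237020, plus strand, and LEA4-5 on chr5:2090431-2090680, minus strand. MYB102 lies on chr4:11419770-11420019, minus strand. LBD41 lies on chr3:538127-538376, minus strand, PRR9 on chr2:19232357-19232606, plus strand, and PDC1 on chr4:15954804-15955053, minus strand.
RD29B: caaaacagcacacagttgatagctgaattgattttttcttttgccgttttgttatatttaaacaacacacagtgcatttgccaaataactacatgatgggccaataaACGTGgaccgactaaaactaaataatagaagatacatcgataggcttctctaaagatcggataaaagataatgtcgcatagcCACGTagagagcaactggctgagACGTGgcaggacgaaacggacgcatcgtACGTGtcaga
LEA4-5: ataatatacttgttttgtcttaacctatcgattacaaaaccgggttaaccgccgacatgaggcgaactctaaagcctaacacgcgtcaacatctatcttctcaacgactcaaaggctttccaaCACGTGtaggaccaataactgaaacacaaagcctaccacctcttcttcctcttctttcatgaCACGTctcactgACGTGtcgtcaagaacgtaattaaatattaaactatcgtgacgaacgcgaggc
MYB102: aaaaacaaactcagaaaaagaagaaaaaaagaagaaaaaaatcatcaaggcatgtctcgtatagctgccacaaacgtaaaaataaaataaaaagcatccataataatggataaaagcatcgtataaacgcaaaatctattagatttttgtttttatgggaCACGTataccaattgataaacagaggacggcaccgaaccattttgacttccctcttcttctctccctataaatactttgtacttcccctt
LBD41: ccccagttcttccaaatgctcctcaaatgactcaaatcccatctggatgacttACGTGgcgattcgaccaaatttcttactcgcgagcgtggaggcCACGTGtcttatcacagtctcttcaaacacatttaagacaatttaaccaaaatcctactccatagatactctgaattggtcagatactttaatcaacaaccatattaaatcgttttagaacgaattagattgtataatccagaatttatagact
PRR9: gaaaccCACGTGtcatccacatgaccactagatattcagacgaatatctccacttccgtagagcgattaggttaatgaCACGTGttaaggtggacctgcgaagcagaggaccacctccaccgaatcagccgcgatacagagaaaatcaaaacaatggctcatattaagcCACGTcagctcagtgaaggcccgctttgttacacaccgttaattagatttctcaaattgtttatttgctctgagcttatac
PDC1: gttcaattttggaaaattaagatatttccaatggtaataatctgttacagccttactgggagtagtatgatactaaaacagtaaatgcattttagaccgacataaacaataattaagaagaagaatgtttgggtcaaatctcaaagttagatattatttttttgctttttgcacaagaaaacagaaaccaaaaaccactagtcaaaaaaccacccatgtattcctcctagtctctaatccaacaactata
Counting both strands, the core was found at 4 positions for RD29B, 4 for LEA4-5, 1 for MYB102, 3 for LBD41, 5 for PRR9 and 0 for PDC1, with a CACGTG counted as 2. The genes shown were picked for their values and are not a sample of those that rose. Among all genes that rose, 72 of 166 such windows (43.4%) held ACGTG, among those that fell 14 of 47 (29.8%), and among 20226 tested protein-coding genes 24%. The hexamer CACGTG, which contains ACGTG, was in 17.5% of the windows of genes that rose, 10.6% of those that fell and 7.38% of all. The evening element AAAATATCT, a sequence of clock-regulated promoters, was in 8.43%, 2.13% and 2.48%. ACGTG was present for 7 of the 8 LEA and protective genes that rose, and for 3 of the 9 low-oxygen genes that rose. These are matches of letters in a fixed window, not measured binding sites.

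Few genes of ABA perception and signalling passed. ABI2, a clade A PP2C phosphatase gene, had 141, 133 and 118 normalised reads at 50 nM ABA and 61.8 and 64.1 in mock (log2 1.04, SE 0.19, adjusted p = 0.0086; adjusted p up to 0.13 without mock replicate 1 or 2). It was the 1 of 7 measured clade A genes that passed, with a list median of 0.51. All 7 had a positive log2 difference, and in 6 every ABA library lay above both mock libraries, as in 17.8% of all loci. The fit of the 2 groups alone called 2 of them higher and that of the 3 Col-0 groups 3, where calls over all loci rose too. HAI1, another member, had 38.7, 25.5 and 36.6 at 50 nM ABA and 13.5 and 16 in mock, and ABI1 had 1410, 1493 and 1430 at 50 nM ABA and 1265 and 1176 in mock, and neither passed (adjusted p = 0.19 and an adjusted p of 0.37). In the SnRK2 kinase and bZIP factor list 3 of 19 rose and none fell, with a median of 0.10. These were SNRK2.9 (79.4, 64.1 and 76.6 at 50 nM ABA against 27.1 and 32.1 in mock), the bZIP factor ABF1 (335, 271 and 324 at 50 nM ABA against 194 and 211 in mock) and OST1, the SnRK2 kinase of stomatal closure (340, 364 and 321 at 50 nM ABA against 233 and 223 in mock), with log2 differences of 1.28, 0.60 and 0.58. These 3 calls were lost in 5, 4 and 4 of the 5 fits that left out a library. The kinase gene MAPKKK18, named after its values were seen, rose with 30.8, 40.4 and 38.9 at 50 nM ABA and 15.5 and 8.49 in mock (log2 1.58, adjusted p = 0.027; lost in all 5 such fits, with an adjusted p up to 0.55).

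None of 9 measured receptor genes passed, and their median log2 difference was -0.18. PYR1 had 1153, 1359 and 1089 normalised reads at 50 nM ABA and 2414 and 2748 in mock (log2 -1.11, SE 0.30, adjusted p = 0.082). PYL6 had 191, 242 and 266 at 50 nM ABA and 483 and 584 in mock (log2 -1.2, SE 0.33, adjusted p = 0.084). PYL4 and PYL5 were also lower in every ABA library, with log2 differences of -0.51 and -0.64 (adjusted p = 0.1 and an adjusted p of 0.15). Each of these 4 genes has a companion row in the deposited table, named with the suffix CA, and how reads were split between the rows is uncertain. The sum of locus and CA row was lower in every ABA library as well: for PYR1 1921, 1652 and 2203 at 50 nM ABA and 2921 and 3424 in mock, and for PYL6 366, 361 and 408 at 50 nM ABA and 700 and 873 in mock. DESeq2 called 3 of the 9 receptors lower and the fit on the 2 groups alone 4, against 0 here, and what caused the change was not tested.

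In ABA turnover, CYP707A1, a hydroxylase of ABA that starts the breakdown of the hormone, rose. It had 363, 396 and 318 normalised reads at 50 nM ABA and 137 and 163 in mock (log2 1.25, SE 0.20, adjusted p = 0.0016; adjusted p = 0.062 without mock replicate 1). It was the 1 of 9 breakdown and conjugation genes that passed. Among 6 measured synthesis genes and 7 transport genes none passed, with medians of 0.24 and 0.17. NCED3, the dioxygenase that limits ABA synthesis under stress, had 79.4, 71.1 and 67.5 at 50 nM ABA and 40.6 and 47.1 in mock (adjusted p = 0.37). ABCG40, an ABA importer, had 705, 911 and 485 at 50 nM ABA and 213 and 182 in mock, with wide spread among the ABA libraries (log2 1.78, SE 0.48, adjusted p = 0.08). ABA2 itself was level, with 210, 216 and 197 at 50 nM ABA and 186 and 221 in mock.

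Among 31 measured ABA- and drought-responsive transcription factor genes, 4 rose and none fell, against 0.79% and 0.224% of all loci. Their median log2 difference was 0.41. MYB102 (AT4G21440), an R2R3-MYB factor of osmotic stress and wounding, had 78.4, 65 and 62.9 normalised reads at 50 nM ABA and 0.966 and 0 in mock. That was 208 reads against 1, a ratio of 144 (exact 95% counting interval 25.6 to 5726, adjusted p = 2.4e-06). MYB74 had 48.6, 63.2 and 88.1 at 50 nM ABA and 15.5 and 19.8 in mock (log2 1.83, adjusted p = 0.022). The NAC factor ANAC019 had 132, 184 and 105 at 50 nM ABA and 45.4 and 41.5 in mock (log2 1.63, adjusted p = 0.039). RAP2.6L, an ERF factor, had 478, 429 and 472 at 50 nM ABA and 252 and 254 in mock (log2 0.86, adjusted p = 0.032). Of the 4 calls only that of MYB102 held without any single library, and the others reached an adjusted p between 0.28 and 0.4 in such fits. ATHB7 and RD26, widely used ABA-responsive factors, did not pass, with log2 differences of 0.34 and 0.31 (adjusted p = 0.73 and an adjusted p of 0.77).

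In the fit of all 28 libraries the low-oxygen response held the most calls of the 32 lists. The share was larger in the LEA and protective list, where 8 of 21 passed. When oxygen is scarce, ERF factors of group VII escape degradation and switch on fermentation enzymes, and PCO enzymes mark those factors for degradation when oxygen returns. Of 26 listed genes, all measured, 9 rose and none fell, against 0.79% and 0.224% of all loci, with a median log2 difference of 1.12. LBD41 (AT3G02550), a LOB-domain factor of the core low-oxygen set, had 3291, 5460 and 2534 normalised reads at 50 nM ABA and 804 and 679 in mock (log2 2.27, SE 0.32, adjusted p = 0.00068). The fermentation enzyme gene PDC1 (AT4G33070), pyruvate decarboxylase, had 1008, 2145 and 866 at 50 nM ABA and 291 and 285 in mock (log2 2.09, SE 0.25, adjusted p = 0.00013). ADH1, alcohol dehydrogenase, had 985, 1541 and 835 at 50 nM ABA and 585 and 379 in mock (log2 1.2, adjusted p = 0.019). In each, ABA replicate 2 stood highest and mock lowest. PCO2, a cysteine oxidase of the oxygen-sensing step, had 476, 1020 and 546 at 50 nM ABA and 243 and 114 in mock (log2 1.94, adjusted p = 0.0063). RBOHD, an NADPH oxidase of reactive oxygen signalling, had 1644, 2517 and 1488 at 50 nM ABA and 904 and 864 in mock (log2 1.05, adjusted p = 0.029). The channel gene NIP2;1 had 132, 154 and 52.6 at 50 nM ABA and 30 and 20.7 in mock (log2 1.99, adjusted p = 0.042). AT5G10040 had 14.9, 50.1 and 14.9 at 50 nM ABA and was listed at 0 in both mock libraries, so that its 85 reads made it at least 19.7-fold higher, taking 3 reads over both mock libraries as the floor. AT1G33055 and AT3G27220 rose by 1.74 and 1.3 on the log2 scale.

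The low-oxygen values moved with a single library. Replicate 2 held the highest of the 3 ABA values in 23 of the 26 genes, against 35% of all loci. Summed over the list, normalised reads were 30272, 46033 and 27066 at 50 nM ABA and 19941 and 16103 in mock. Without ABA replicate 2 the list median was 0.92 and 4 members passed, and without mock replicate 2 it was 0.92 and 2 passed. LBD41 and PDC1 passed in every fit that left out a library, with an adjusted p up to 0.033 and an adjusted p up to 0.0078. PCO2 and AT3G27220 were lost without mock replicate 2, ADH1 and AT5G10040 in 3 of the 5 fits, and NIP2;1, RBOHD and AT1G33055 in 4, with an adjusted p up to 0.51. The count also changed with the fit. In the 2 groups alone 5 members passed, in the 3 Col-0 groups 8, and with the replicate number as a block 6. DESeq2 called 14, and group weights for the spread gave 18. Calls over all loci rose in each of these fits, to 929, 1071, 1360, 453 and 1464. The list was not uniform. HRE2 and SUS1 had log2 differences of 1.58 and 0.85 without passing (adjusted p = 0.25 and an adjusted p of 0.14), while HB1, the low-oxygen haemoglobin, and the ERF factor HRE1 overlapped between groups. HB1 had 1768, 2807 and 1363 normalised reads at 50 nM ABA and 1804 and 1283 in mock. The part of the differences between ABA libraries in these calls was not tested beyond the values given.

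**Figure D2:**
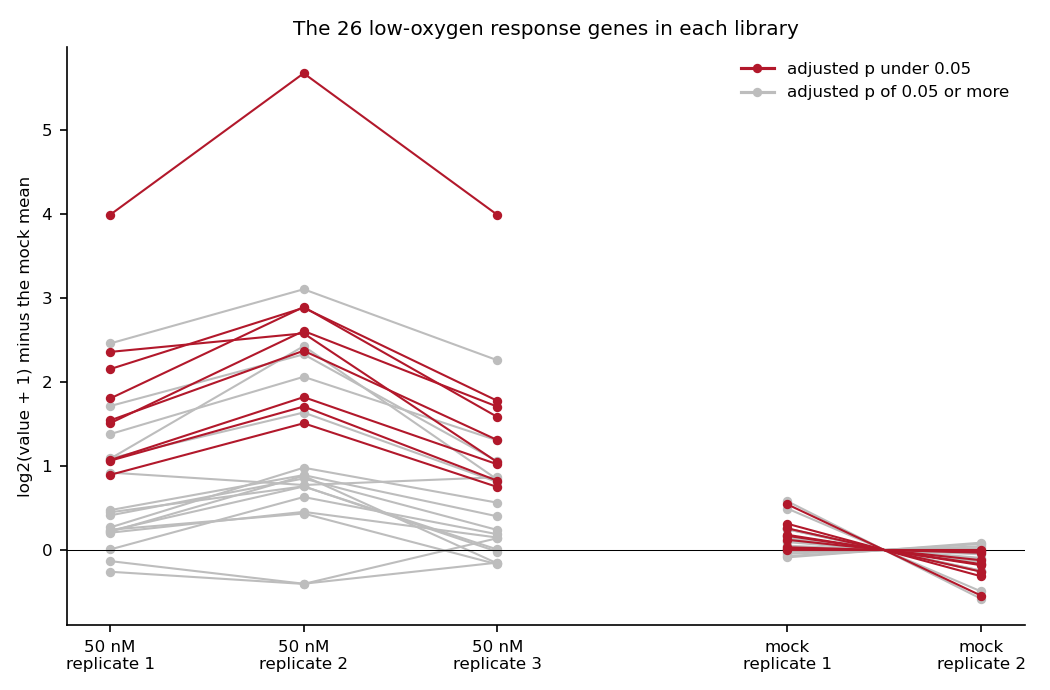
Log2(value + 1) of the 26 low-oxygen genes in each of the 5 libraries, relative to the gene's mock mean, with a line joining the values of each gene within a group and red for the 9 with an adjusted p under 0.05. Most lines peak at 50 nM ABA replicate 2, where 23 of 26 genes have their highest ABA value, and the 9 red genes stay above 0 in all 3 ABA libraries.

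Clock genes changed in both directions. The plant clock runs on morning factors such as LHY and CCA1, followed through the day by PRR9, PRR7 and PRR5 and towards evening by GI and TOC1. Of 28 listed genes 4 rose and 1 fell, against 0.79% and 0.224% of all loci, with a median log2 difference of 0.18. PRR9 (AT2G46790) had 211, 158 and 241 normalised reads at 50 nM ABA and 78.3 and 51.9 in mock (log2 1.64, SE 0.21, adjusted p = 0.00028). FKF1, a blue-light receptor of flowering time, had 67.5, 53.6 and 60.6 at 50 nM ABA and 16.4 and 19.8 in mock (log2 1.69, adjusted p = 0.0018). PRR5 had 696, 500 and 574 at 50 nM ABA and 300 and 381 in mock, and GI had 1075, 969 and 1074 at 50 nM ABA and 649 and 629 in mock (log2 0.79 and 0.70). LHY fell, with 403, 386 and 509 at 50 nM ABA and 659 and 711 in mock (log2 -0.67, adjusted p = 0.04). CCA1 had 411, 357 and 499 at 50 nM ABA and 494 and 605 in mock, so its groups overlapped (adjusted p = 0.31). The call of PRR9 held without any single library. FKF1 missed the threshold without mock replicate 1 (adjusted p = 0.062), GI in 3 such fits, and PRR5 and LHY in 4 each, with an adjusted p between 0.25 and 0.45 at most. The labels used here give no time of day, and the part of collection time in these values was not tested.

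**Figure D3:**
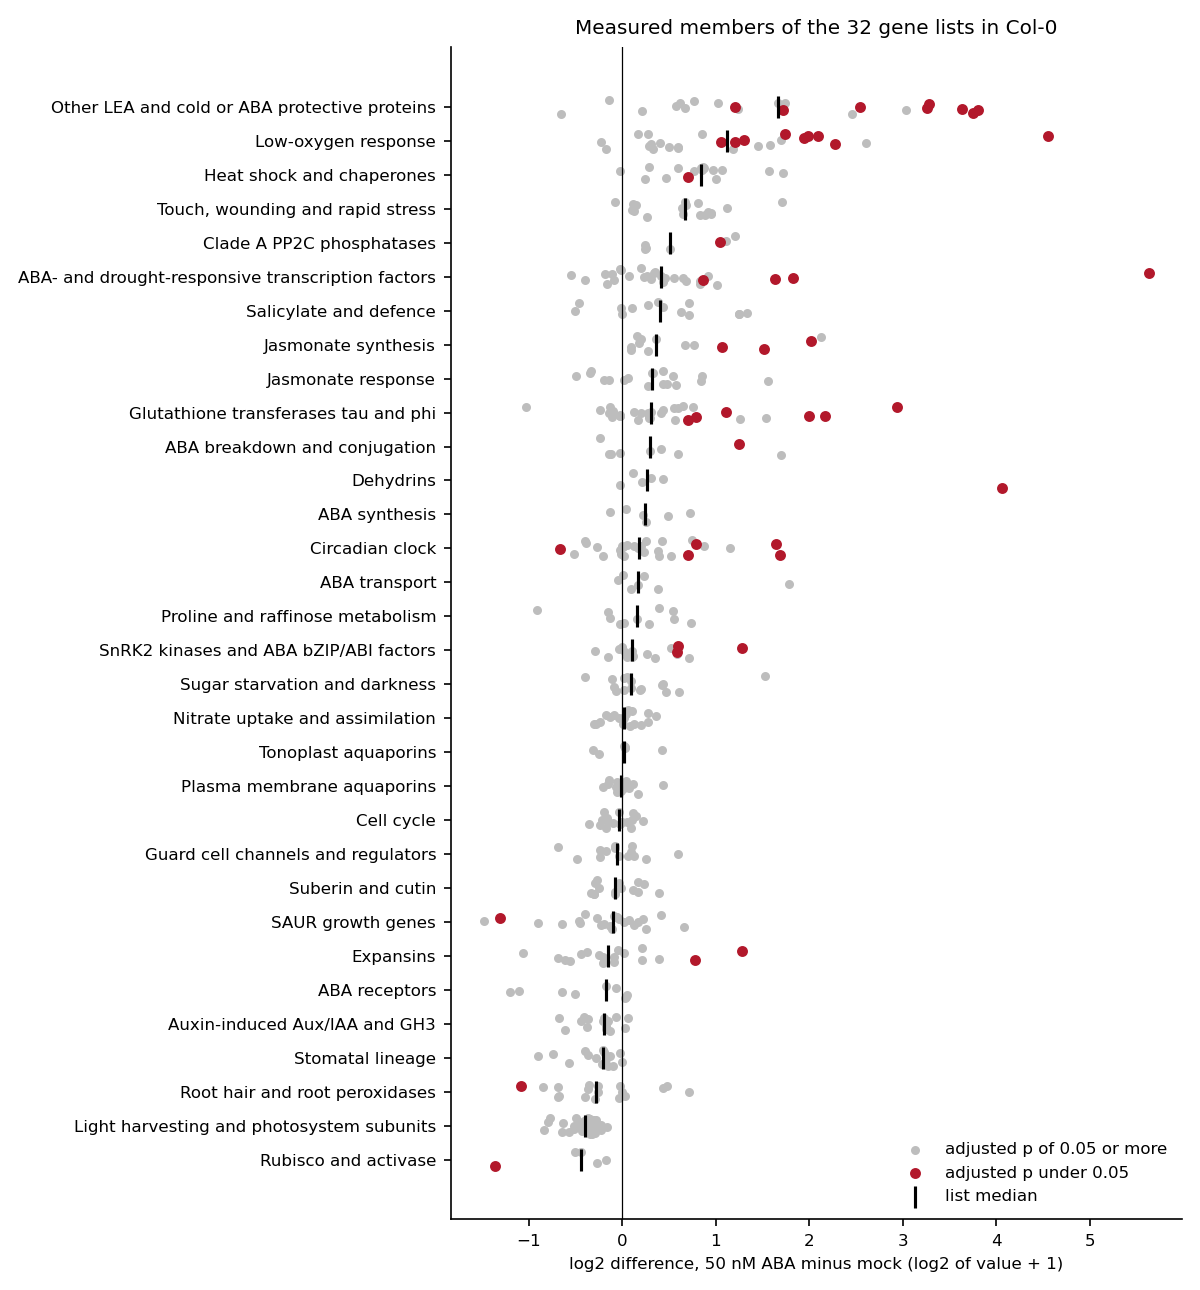
Log2 difference between 50 nM ABA and mock in Col-0 for each measured member of 32 gene lists (rows, ordered by median), with red points for an adjusted p under 0.05 and a black bar at each median. LEA and protective proteins (median 1.67) and low-oxygen genes (1.12) lie at the top, and light harvesting genes (-0.40) and Rubisco genes (-0.44) at the bottom.

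Enzymes of jasmonate synthesis were higher in part. Of 13 measured genes 3 rose and none fell, against 0.79% and 0.224% of all loci, and the list median was 0.36. LOX3, a lipoxygenase of the first step, had 273, 390 and 411 normalised reads at 50 nM ABA and 119 and 62.2 in mock (log2 2.02, SE 0.43, adjusted p = 0.022). LOX2 had 3066, 4907 and 1800 at 50 nM ABA and 1614 and 680 in mock (log2 1.52, adjusted p = 0.049). The cyclase gene AOC2 had 2246, 3527 and 1897 at 50 nM ABA and 1217 and 1140 in mock (log2 1.07, adjusted p = 0.014). LOX3, LOX2 and AOC2 were lost in 4, 3 and 3 of the fits that left out a library, with an adjusted p up to 0.48, an adjusted p up to 0.9 and an adjusted p up to 0.26. In the 3 Col-0 groups alone 0 of the 13 passed, with LOX3 at an adjusted p of 0.059 in limma. In the 2 groups alone 2 passed, as with the replicate number as a block, and group weights for the spread gave 6. Downstream, none of 18 jasmonate response genes passed (median 0.32). MYC2, the main factor of that response, had 1164, 1065 and 1415 at 50 nM ABA and 894 and 895 in mock (adjusted p = 0.31).

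Glutathione transferases attach glutathione to reactive compounds. Of 32 measured tau and phi class genes 6 rose and none fell, against 0.79% and 0.224% of all loci. GSTU4 (AT2G29460) had 356, 303 and 258 normalised reads at 50 nM ABA and 70.5 and 80.2 in mock (log2 2.0, SE 0.26, adjusted p = 0.00028). GSTU11 had 255, 238 and 103 at 50 nM ABA and 20.3 and 26.4 in mock (log2 2.94, SE 0.51, adjusted p = 0.0046; adjusted p up to 0.1 without mock replicate 1 or 2). GSTU5 had 874, 1091 and 978 at 50 nM ABA and 473 and 430 in mock (log2 1.11, adjusted p = 0.0016). GSTU3, GSTU2 and GSTU24 rose by 2.17, 0.79 and 0.70. GSTU2 to GSTU5 are neighbouring copies, and how reads were split between them is uncertain. GSTU5 and GSTU3 missed the threshold without mock replicate 2 (adjusted p = 0.079 and an adjusted p of 0.25), GSTU24 in 4 of the fits that left out a library and GSTU2 in all 5, with an adjusted p up to 0.47. Across all tau and phi members the median log2 difference was 0.31.

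Several of the largest rises were in genes outside the lists. ELI3-2, annotated as cinnamyl alcohol dehydrogenase 8, had 132, 425 and 66.3 normalised reads at 50 nM ABA and 9.66 and 2.83 in mock (log2 4.61, SE 0.88, adjusted p = 0.013). NAC036, a NAC factor, had 103, 145 and 70.9 at 50 nM ABA and 11.6 and 4.71 in mock (log2 3.60, adjusted p = 0.03). AT4G10265, of the wound-responsive family, had 94.3, 184 and 54.9 at 50 nM ABA and 8.7 and 9.43 in mock (log2 3.31, adjusted p = 0.017). In these and in AT2G17850, AT3G23170, AT3G02840 and AT1G57630 (log2 3.01, 2.66, 2.93 and 2.5), ABA replicate 2 was the highest library. AT1G26380, a berberine bridge enzyme-like oxidase, had 316, 300 and 223 at 50 nM ABA and 52.2 and 44.3 in mock (log2 2.5, adjusted p = 0.021). WAKL10, a wall-associated kinase-like gene, had 126, 112 and 111 at 50 nM ABA and 27.1 and 9.43 in mock (log2 2.78, adjusted p = 0.049). AT3G23170 missed the threshold without mock replicate 2 alone (adjusted p = 0.055), ELI3-2 in 3 of the 5 fits that left out a library, WAKL10 in all 5, and the other 6 in 4 each, with an adjusted p up to 0.72. Among all 166 genes that rose, replicates 1, 2 and 3 were the highest ABA library for 76, 69 and 21, against 5898, 7363 and 7762 of all loci. Among the 47 that fell they were the highest for 10, 7 and 30, 63.8% for replicate 3 against 36.9% of all loci.

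Further rises, named after their values were seen, covered signalling and metabolism. SRO4, of a family related to poly(ADP-ribose) polymerases, had 24.8, 112 and 38.9 normalised reads at 50 nM ABA and was listed at 0 in both mock libraries, at least 43-fold higher (adjusted p = 0.00068). AT2G42560, a LEA-domain gene, had 27.8, 50.1 and 37.7 at 50 nM ABA and 0 and 1.89 in mock, a ratio of 40.9 (exact 95% counting interval 11.1 to 342, adjusted p = 0.00092). WRKY6, a WRKY factor, had 2214, 2251 and 1850 at 50 nM ABA and 899 and 796 in mock (log2 1.31, adjusted p = 0.013). ACS2, which makes the ethylene precursor, had 165, 117 and 84.6 at 50 nM ABA and 18.4 and 33 in mock (log2 2.21, adjusted p = 0.03). PAL1, the entry enzyme of phenylpropanoid synthesis, had 6030, 6134 and 4058 at 50 nM ABA and 2868 and 3150 in mock (log2 0.82, adjusted p = 0.026). DREB2C, an ERF factor of heat and drought, had 118, 77.3 and 84.6 at 50 nM ABA and 39.6 and 41.5 in mock (log2 1.16, adjusted p = 0.02). SRO4 held in all 5 fits that left out a library, AT2G42560 in all but that without mock replicate 1 (adjusted p = 0.056), DREB2C in 2, and WRKY6, ACS2 and PAL1 in 1 each, with an adjusted p up to 0.4. By family, 8 of 164 measured cytochrome P450 genes rose, 6 of 114 UDP-glycosyltransferases rose and 1 fell, 2 of 54 WRKY factors rose, 3 of 61 ERF/DREB factors rose and 8 of 692 protein kinases rose, against 0.79% higher and 0.224% lower over all loci. The families were also chosen after seeing the data.

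Other stress lists showed higher values with few calls. In the heat shock and chaperone list, with 16 genes and a median of 0.84, HSP101 alone passed, at 499, 527 and 580 normalised reads at 50 nM ABA and 336 and 320 in mock (log2 0.70, adjusted p = 0.042). It missed the threshold in all 5 fits that left out a library, with an adjusted p up to 0.43. No member passed among 18 touch, wounding and rapid-stress genes (median 0.67) or 14 salicylate and defence genes (median 0.40). The counts in these lists were larger in other fits: in the fit of the 2 groups alone 7 heat shock, 8 touch and 1 salicylate gene were called higher, and in the 3 Col-0 groups 7, 7 and 2. In those lists 13, 12 and 9 members had all ABA libraries above both mock libraries, as 17.8% of all loci did. ZAT12, a zinc finger factor of rapid stress, had 462, 442 and 432 at 50 nM ABA and 219 and 241 in mock (log2 0.95, adjusted p = 0.069). WRKY53 had 462, 550 and 356 at 50 nM ABA and 152 and 123 in mock (log2 1.71, adjusted p = 0.12). In the sugar starvation list no gene passed (median 0.09). There ABA replicate 3 was the highest ABA library in 14 of 16 genes, and the summed reads were 64805, 47059 and 85621 at 50 nM ABA and 58059 and 63766 in mock.

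In the photosynthesis lists 1 gene fell: of 5 Rubisco and activase genes RBCS1B passed (median -0.44), and of 38 light-harvesting and photosystem genes none. RBCS1B (AT5G38430), 1 of the genes for the small subunit of the carbon-fixing enzyme Rubisco, had 2642, 2887 and 2342 normalised reads at 50 nM ABA and 6073 and 7456 in mock (log2 -1.36, SE 0.30, adjusted p = 0.025). This call was lost in all 5 fits that left out a library, with an adjusted p up to 0.38, and RBCS1B, RBCS2B and RBCS3B are close copies whose read split is uncertain. RBCS2B had 20010, 19806 and 21987 at 50 nM ABA and 28081 and 30769 in mock (log2 -0.51, adjusted p = 0.27). In all 38 light-harvesting and photosystem genes every ABA library lay below both mock libraries, as in 16.8% of all loci, with log2 differences from -0.84 to -0.16 and a median of -0.40. LHCB2.1, an antenna protein of photosystem II and also close to its copies, had 14654, 15143 and 14350 at 50 nM ABA and 24587 and 26702 in mock (log2 -0.80, SE 0.20, adjusted p = 0.059). These 38 genes share their cells and their libraries and are not independent. The fit on the 2 groups alone called 14 of them lower and the fit on the 3 Col-0 groups 25. GLK2, a factor that drives chloroplast gene expression, fell, with 541, 504 and 548 at 50 nM ABA and 764 and 851 in mock (log2 -0.60, adjusted p = 0.0087; adjusted p up to 0.26 without mock replicate 1 or 2), and is named after its values were seen.

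No cell type marker passed, and the summed levels of some marker lists differed between the groups. The 7 mesophyll markers, which include genes of the photosynthesis lists, summed to 340060 to 381246 normalised reads at 50 nM ABA and 433493 to 462214 in mock (median log2 difference -0.36). The 7 guard cell markers summed to 1198 to 1450 at 50 nM ABA and 1760 to 1927 in mock (median -0.55). In each of these 2 lists 5 of 7 markers had every ABA library below both mock libraries, as in 16.8% of all loci. KAT1, a potassium channel of guard cells, had 301, 339 and 355 at 50 nM ABA and 508 and 560 in mock (log2 -0.69, adjusted p = 0.062). The 7 phloem and xylem markers summed to 4592 to 4956 at 50 nM ABA and 5370 to 5593 in mock, with 3 members above and 3 below mock in every ABA library and a median of -0.05. Root and epidermis markers overlapped in their sums, with medians of -0.04 each. In whole seedlings, fewer cells of a type and less RNA per cell cannot be told apart, and the part of cell makeup in the photosynthesis and other values was not tested. Among 14 guard cell channel and regulator genes and 15 stomatal lineage genes none passed (medians -0.06 and -0.21).

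Among genes averaging at least 50 normalised reads, the 10 largest falls held no member of the ABA lists. AT4G21870, of the small heat shock protein family, had 465, 464 and 515 normalised reads at 50 nM ABA and 1180 and 1620 in mock (log2 -1.52, SE 0.25, adjusted p = 0.0031; adjusted p = 0.18 without mock replicate 2). AT2G43140, a bHLH factor, had 637, 714 and 763 at 50 nM ABA and 1419 and 1519 in mock (log2 -1.06, SE 0.15, adjusted p = 0.00068). The root hair gene RSH2 had 57.6, 47.4 and 35.5 at 50 nM ABA and 100 and 107 in mock (log2 -1.15, adjusted p = 0.0027; adjusted p = 0.091 without mock replicate 2). PRX2, a peroxidase gene whose copy AT1G05240 makes its reads uncertain, had 219, 171 and 157 at 50 nM ABA and 317 and 460 in mock (log2 -1.08, adjusted p = 0.027). SAUR5, an auxin-responsive growth gene, had 71.5, 99.2 and 67.5 at 50 nM ABA and 212 and 180 in mock (log2 -1.31, adjusted p = 0.032). AT1G75960, AT1G48780, AT5G03545 and AT5G03890 fell by 1.2, 1.07, 1.02 and 0.95 on the log2 scale. PRX2, SAUR5 and those 4 were lost in 4 or 5 of the fits that left out a library, with an adjusted p up to 0.55. In the lists to which SAUR5 and PRX2 belong, 1 of 24 SAUR genes fell (median -0.10) and 1 of 18 root hair and root peroxidase genes fell (median -0.28).

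Hormone and lipid genes were among further falls, named after their values were seen. GA20OX2, an enzyme of gibberellin synthesis, had 128, 131 and 138 normalised reads at 50 nM ABA and 262 and 217 in mock (log2 -0.84, SE 0.13, adjusted p = 0.0012; adjusted p = 0.068 without mock replicate 1). CCD8, of strigolactone synthesis, had 6.95, 12.3 and 12.6 at 50 nM ABA and 54.1 and 33.9 in mock (log2 -1.96, adjusted p = 0.027). LACS1, an acyl-CoA synthetase of cuticular wax, had 809, 715 and 850 at 50 nM ABA and 1347 and 1268 in mock (log2 -0.73, adjusted p = 0.00068). TBL45, of a family of cell wall acetylation, had 449, 512 and 514 at 50 nM ABA and 920 and 939 in mock (log2 -0.92, adjusted p = 0.00068). AT3G27950, a GDSL lipase gene, had 18.9, 14 and 10.3 at 50 nM ABA and 65.7 and 68.8 in mock (log2 -2.19, adjusted p = 0.0033). AT3G27950 was lost without mock replicate 1 or 2 (adjusted p up to 0.092) and CCD8 in 4 of the 5 fits (up to 0.37).

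Members of the cell growth lists passed in few cases. The expansin gene EXPA16, whose protein loosens cell walls, rose, with 1246, 1010 and 1058 normalised reads at 50 nM ABA and 677 and 604 in mock (log2 0.78, SE 0.12, adjusted p = 0.0009; adjusted p = 0.07 without mock replicate 2). EXPA10 had 318, 484 and 215 at 50 nM ABA and 160 and 108 in mock (log2 1.28, adjusted p = 0.032), a call lost in 4 of the fits that left out a library, with an adjusted p up to 0.56. Across 18 measured expansins the median log2 difference was -0.15. Of 15 auxin-induced Aux/IAA and GH3 genes none passed (median -0.20). IAA19, an auxin response repressor, had 287, 380 and 328 at 50 nM ABA and 553 and 504 in mock (log2 -0.68, adjusted p = 0.054). No member passed among 13 plasma membrane aquaporins, 6 tonoplast aquaporins, 11 proline and raffinose genes, 19 nitrate genes, 17 cell cycle genes or 15 suberin and cutin genes, with medians between -0.08 and 0.16.

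The values at 10 nM ABA place these differences on a dose scale, with the same mock libraries in both comparisons. By concentration, MYB102 had 0.966 and 0 normalised reads in mock, 20.9 and 32.9 at 10 nM ABA and 78.4, 65 and 62.9 at 50 nM ABA. RD29B had 10.6 and 8.49 in mock, 119 and 88.8 at 10 nM ABA and 88.3, 105 and 105 at 50 nM ABA. The groups at 10 and 50 nM ABA thus lay apart for MYB102 and overlapped for RD29B. RAB18 had 16.4 and 32.1 in mock, 249 and 299 at 10 nM ABA and 531, 299 and 399 at 50 nM ABA. LOX3 had 119 and 62.2 in mock, 174 and 84.4 at 10 nM ABA and 273, 390 and 411 at 50 nM ABA, and AOC2 had 1217 and 1140 in mock, 1094 and 1289 at 10 nM ABA and 2246, 3527 and 1897 at 50 nM ABA. In LOX3 and AOC2 the 10 nM ABA libraries overlapped mock or lay beside it, and every 50 nM ABA library lay above both. RBCS1B had 6073 and 7456 in mock, 2743 and 3183 at 10 nM ABA and 2642, 2887 and 2342 at 50 nM ABA, so that here the 2 doses overlapped. Between 50 and 10 nM ABA no locus of 21023 passed in limma or in edgeR (percent called 0) and 6 passed in DESeq2. So no single gene named here passed as different between the doses in the limma fit of all 28 libraries. Other limma fits called 17 loci in the 3 Col-0 groups alone, 10 in the 2 groups alone, 46 with group weights and 34 with a replicate block. In the fit of all 28 libraries an unadjusted limma p under 0.05 was found for 763 of the 21023, a share below the 0.05 that this threshold alone would give. Against mock, 6 loci (0.0285%) passed at 10 nM ABA.

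**Figure D4:**
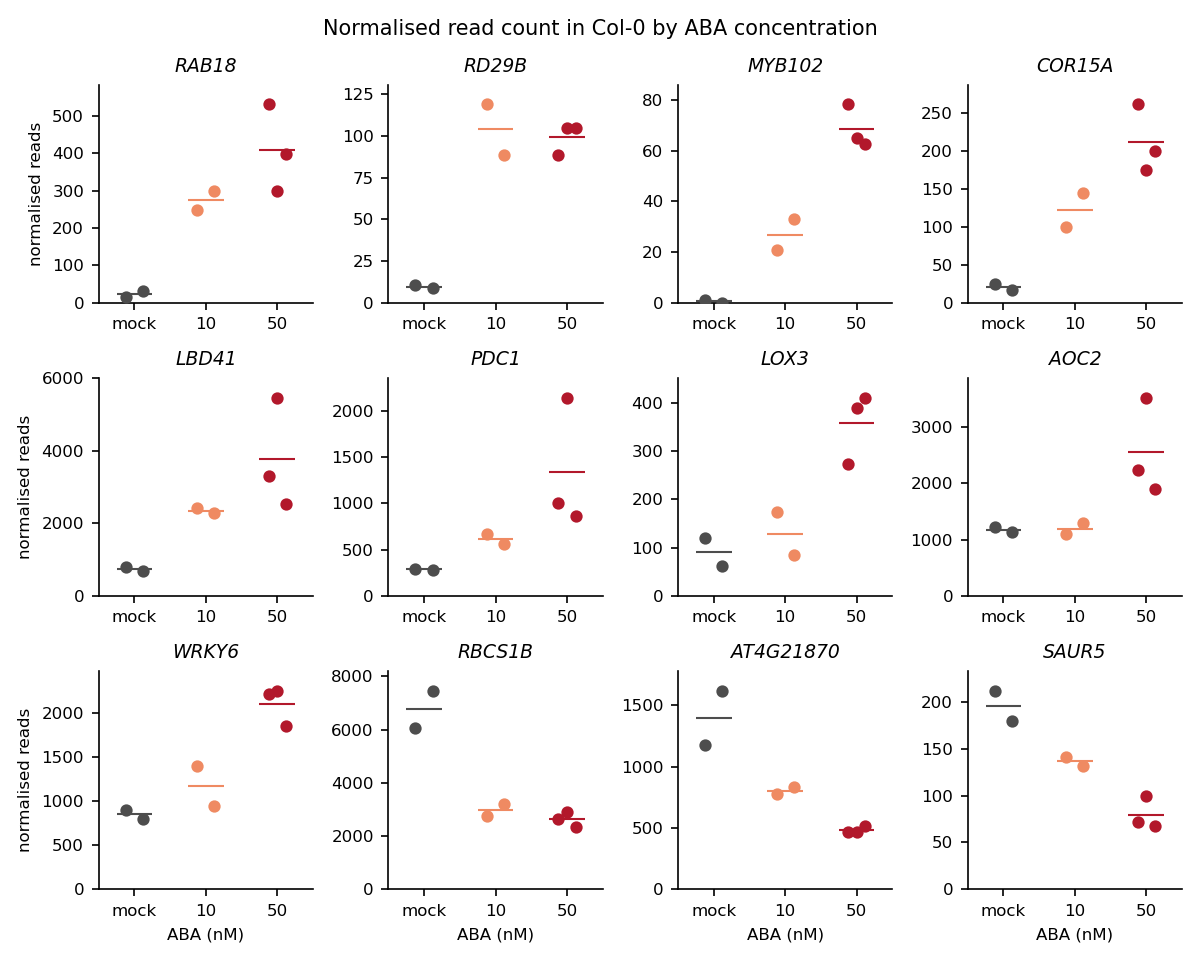
Normalised reads (vertical axes, linear from 0) of 12 genes in Col-0 mock (2 libraries), 10 nM ABA (2) and 50 nM ABA (3), with a line at each group mean. RD29B and RBCS1B are about level between 10 and 50 nM ABA, while LOX3, AOC2 and WRKY6 are highest in the 50 nM ABA libraries.

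The same dose was given to aba2-1, in libraries that share none with the Col-0 comparison. There 5210 loci (24.8%) passed, with 2660 higher (12.7%) and 2550 lower (12.1%). In aba2-1 50 nM ABA replicates 2 and 3 the median absolute log2 deviation from the group mean was 0.306 and 0.261. It was 0.064 to 0.107 in the 5 Col-0 libraries compared. That replicate 2 held 11.99 M reads, the fewest of the series. Of the 166 genes that rose in Col-0, 86 (51.8%) also rose in aba2-1, where they were 3.23% of the genes that rose, and 4 fell. Of the 47 genes that fell in Col-0, 35 (74.5%) also fell in aba2-1, 1.37% of the genes that fell there. The difference between the responses (Col-0 minus aba2-1), tested as an interaction, passed for 431 loci (2.05%). It was positive for 303 (1.44%) and negative for 128 (0.609%). A positive difference can also come from a gene that fell more in aba2-1 than in Col-0. When a library was left out, 216 and 279 loci passed with Col-0 ABA replicate 1 or 2 missing, 143 and 139 with Col-0 mock replicate 1 or 2 missing, 3338 with aba2-1 50 nM ABA replicate 3 missing and 267 with aba2-1 mock replicate 3 missing. Among the 166 genes, the response was larger in Col-0 for 22 and larger in aba2-1 for 7. Since these genes were selected on their Col-0 response, these counts are a description.

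On the log2 scale, several ABA-inducible protective genes responded less in Col-0 than in aba2-1. A log2 difference depends on the mock level as well as the treated level, and the part of mock levels here was not tested. Loci passing the interaction went from 431 to 130 in the groups compared alone, 59 with a replicate block and 982 in DESeq2. Results of those fits for the single genes below are not given here. RAB18 had a log2 difference of 4.06 in Col-0 and 6.0 in aba2-1 (interaction -1.94, adjusted p = 0.0065), and LEA4-5 had 2.54 in Col-0 and 5.27 in aba2-1 (interaction -2.73, adjusted p = 0.0065). RD29A, which did not pass in Col-0, had 1.02 in Col-0 and 2.95 in aba2-1 (interaction -1.93, adjusted p = 0.0045). Of the 21 LEA and protective genes, 5 passed the interaction in this direction and none in the other, and of the 6 dehydrins 4 and none, against 0.609% of all loci in that direction. Other genes rose in Col-0 and did not pass, or fell, in aba2-1. GSTU11 had 2.94 in Col-0 and -0.13 in aba2-1 (interaction 3.07, adjusted p = 0.017), AT1G26380 had 2.5 in Col-0 and -1.17 in aba2-1 (interaction 3.67, adjusted p = 0.0063), and RBOHD had 1.05 in Col-0 and -0.75 in aba2-1 (interaction 1.8, adjusted p = 0.003). LOX3 had 2.02 in Col-0 and -0.17 in aba2-1 (interaction 2.19, adjusted p = 0.048). LBD41, PDC1 and ADH1 showed no such difference that passed, at 2.27, 2.09 and 1.2 in Col-0 and 1.27, 1.63 and 1.23 in aba2-1 (adjusted p between 0.22 and 0.97). Among the falls, SAUR5 had -1.31 in Col-0 and -3.37 in aba2-1 (interaction 2.06, adjusted p = 0.0065), and AT4G21870 had -1.52 in Col-0 and -3.36 in aba2-1 (interaction 1.84, adjusted p = 0.0047). GA20OX2 fell in Col-0 at -0.84 and had 0.22 in aba2-1 (interaction -1.07, adjusted p = 0.0013).

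**Figure D5:**
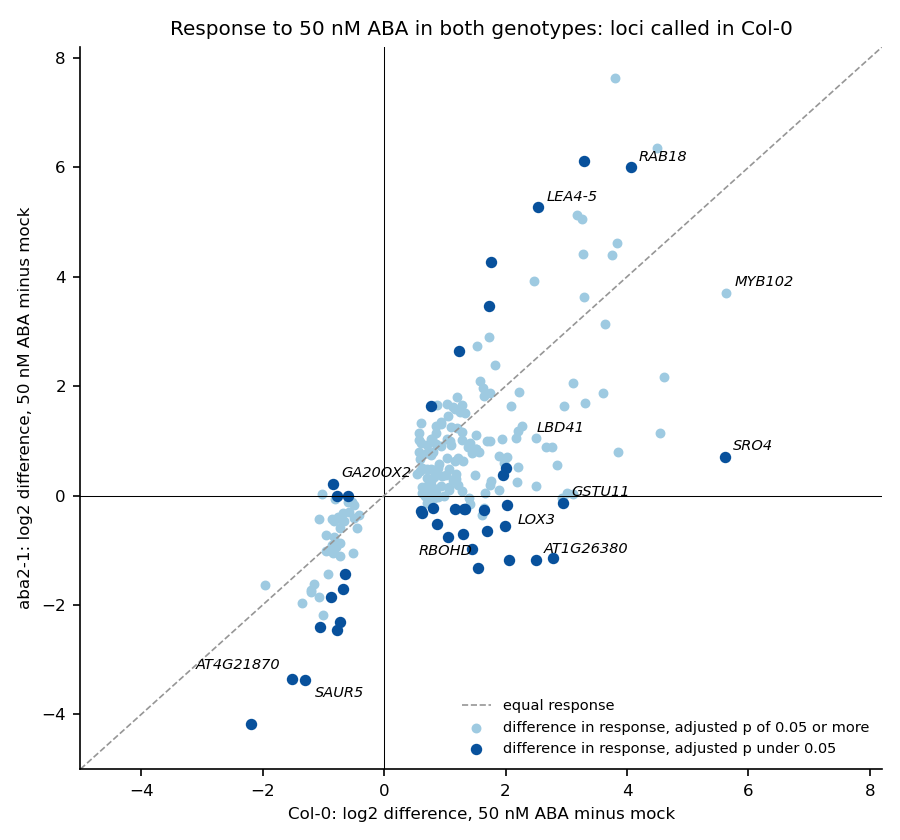
Log2 difference between 50 nM ABA and mock in aba2-1 (vertical axis) against Col-0 (horizontal axis) for the 213 loci called in Col-0, with dark points where the difference in response has an adjusted p under 0.05 and a dashed line of equal response. RAB18 and LEA4-5 lie above the line, at 6.0 and 5.27 in aba2-1, and GSTU11, LOX3 and RBOHD lie below it, with aba2-1 values from -0.75 to -0.13.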

How the data were processed

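RNA was measured by stranded sequencing of whole Arabidopsis seedlings. The deposited table gives 1 signal value per gene and library, and the authors divided each library's read counts by 1 size factor, as the values show: 100% are whole multiples of the library's step within 0.01 read. Per the submitters' processing notes, Trimmomatic 0.38, Salmon 1.3.0, edgeR 3.28.0 and the TAIR10 build were used, with no role or order given. The strand setting and the read assignment between copies are not given in the sources used here, which can shift values between overlapping or similar genes.

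Of 23686 rows, 23681 are loci and 5 are other sequences, left out of the tests, and 23457 loci were matched to RefSeq TAIR10.1. Loci with a value of at least 10 in at least 2 samples (21023) were tested with limma 3.58.1 in R 4.3.3 on log2(value + 1), with trend and robust shrinkage, 1 mean per group over all 28 samples in 10 groups, and Benjamini-Hochberg adjustment. Since the values are scaled counts, a count test was not the main test, and log2 differences understate changes of low genes. The recovered reads, 15.16 to 20.13 M in the 5 libraries compared, went into edgeR 4.0.16 and DESeq2 1.42.0 as alternatives. Scripts were tested on simulated data.

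Named genes are the 15 largest rises and 10 largest falls among called loci averaging at least 50 without overlap of groups, the 5 smallest p, every called list member, up to 4 members of smallest p in each list, 10 loci of smallest interaction p, and PYR1, PYL4, PYL5, PYL6 and ABA2. Other genes are said to be named after their values were seen, or are list members that did not pass, given as values. The members and the 32 response and 6 marker lists were chosen with earlier results of these data known. Alternatives covered test, scaling, filter, pseudocount, samples in the fit, spread, a replicate block and each replicate left out.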

Additional observations from a re-analysis of the deposited data

Results flagged for a closer look

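The 10 loci of smallest interaction p, with an average of at least 50 normalised reads, differed between genotypes in their response to 50 nM ABA. The difference is the log2 response in Col-0 minus that in aba2-1, tested in limma over all loci, and all 10 had an adjusted p between 9e-05 and 0.00021.

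In 7 of them the value in aba2-1 was lower at 50 nM ABA than in mock while Col-0 moved less. ABCG14, a transporter of cytokinin, had 1057, 884 and 819 normalised reads at 50 nM ABA and 892 and 732 in mock in Col-0, and 457, 443 and 462 at 50 nM ABA and 1225, 1162 and 1503 in mock in aba2-1, a difference of 1.68 (SE 0.19). GLIP2, a GDSL lipase gene, had a log2 response of -0.17 in Col-0 and -2.97 in aba2-1 (difference 2.8, SE 0.34). PMEPCRA, a pectin methylesterase gene, had -0.22 and -1.61 (difference 1.39, SE 0.17), and MDHAR, an enzyme of ascorbate recycling, had -0.20 and -1.77 (difference 1.57, SE 0.19). AT1G05700 had -0.68 in Col-0 and -3.35 in aba2-1 (difference 2.67, SE 0.32), and AT3G50010 had -0.13 and -2.24 (difference 2.11, SE 0.25). The peroxidase gene Prx37 was the only one of the 10 called in Col-0, where it fell: 436, 491 and 383 at 50 nM ABA and 769 and 671 in mock. In aba2-1 it had 204, 218 and 147 at 50 nM ABA and 990, 933 and 866 in mock (difference 1.58, SE 0.20).

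In the other 3 the response was more positive in aba2-1. ATHB7, a homeodomain factor of the ABA response, had 324, 292 and 297 at 50 nM ABA and 214 and 269 in mock in Col-0, and 1153, 1650 and 925 at 50 nM ABA and 194, 263 and 210 in mock in aba2-1, a difference of -2.11 (SE 0.27). CYP71A19, a cytochrome P450 gene, had a log2 response of 0.47 in Col-0 and 3.3 in aba2-1 (difference -2.83, SE 0.33). KIN1, a close copy of KIN2 whose reads are uncertain, had 0.77 and 3.48 (difference -2.71, SE 0.36), with 497 and 654 in Col-0 mock and 103, 103 and 116 in aba2-1 mock.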

How the results depend on the processing

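Counts of called loci moved by less than 1.5 times with another scaling, filter or pseudocount, and by more with DESeq2, which changes test and scaling together, and with other samples or weights behind the spread. For 50 nM ABA against mock in Col-0 the 213 calls (166 higher, 47 lower) became 453 in DESeq2 (327 and 126), 1071 in the 3 Col-0 groups alone (769 and 302), 929 in the 2 groups alone (727 and 202) and 1464 under group weights for the spread (930 and 534). Leaving out 1 library gave 25 to 370 calls (20 to 269 higher, 5 to 101 lower). Those with aba2-1 or 10 nM ABA libraries left out were chosen after seeing the data. edgeR called 195, of which 179 were among the 213.

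Between 50 and 10 nM ABA the 0 calls became 6 in DESeq2 (3 higher, 3 lower), 17 in the 3 Col-0 groups (16 and 1), 10 in the 2 groups alone (7 and 3) and 46 with weighted spread (33 and 13), and were 0 in every fit that left out a library. For the difference in response between Col-0 and aba2-1, the 431 calls became 982 in DESeq2 (551 and 431), 130 in the groups compared alone (98 and 32) and 193 with weighted spread (101 higher), and 68 were lower in the 6 Col-0 and aba2-1 groups alone. Leaving out 1 library gave 139 to 3338 calls (105 to 1536 higher, 34 to 1802 lower). The causes were not tested.

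The labels do not say that replicate numbers pair libraries. Each Col-0 comparison had only 2 same-numbered pairs, and the deviations in a group of 2 libraries mirror each other. The correlations there cannot decide whether libraries were paired. Deviations from the group means of same-numbered libraries correlated over 18160 loci at 0.00808 and -0.121 for 50 nM ABA and mock in Col-0, at 0.142 and 0.194 for 50 and 10 nM ABA (2 pairs only), and at 0.153, -0.132 and -0.0303 for 50 nM ABA and mock in aba2-1, where not every library correlated best with its own number. With the number as a replicate block, 1360 loci were called in Col-0 (1014 higher, 346 lower), 34 between doses (33 and 1) and 59 for the difference in response (47 and 12).

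With only the nearer part of the promoter window, of 0.5 times its length, ACGTG was in 30.1%, CACGTG in 9.04% and AAAATATCT in 3.01% of promoters of genes that rose (15.7%, 5.04% and 1.32% of all tested), and AAAATATCT in 0% of those of genes that fell. Of 2132 recomputed values of 126 named genes, 1726 kept direction and side of the threshold, 280 lost the call and 1 reversed, and the rest gained it. ABA2 reversed, at -0.09 without Col-0 mock replicate 1, against 0.16 without replicate 2. Of 646 recomputed list medians, 24 moved by more than the spread between replicates. The median SE of a log2 difference was 0.21, which limits calls to larger changes.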
